A study of Mus musculus with 3 samples.

Results

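The Hnrnp and Srsf genes encode the heterogeneous nuclear ribonucleoproteins (hnRNPs) and the serine/arginine-rich (SR) splicing factors. They were taken as all protein-coding genes of the mouse RefSeq annotation (GRCm38.p6, the assembly with mm10 coordinates) whose symbols begin with Hnrnp or Srsf, which gave 32 genes, 21 Hnrnp and 11 Srsf, of 21900 protein-coding genes. The sites set against them came from AGO2 HITS-CLIP of P19 cells, a mouse embryonal carcinoma line, in which RNA crosslinked to AGO2 was pulled down with the antibody clone 2D4 and sequenced. All 3 libraries formed 1 group with no treated, mutant or control cells beside it. The deposited values were 4 lists of peaks for the series as a whole, 1 from each of the callers PIPE-CLIP, CIMS, Piranha and Pyicoclip, so no spread between libraries could be given and depth per library is unknown. A peak was counted in a gene when its midpoint lay in the gene span, on either strand, and positions below are mm10, counted from 1.

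hnRNPs are abundant nuclear proteins that coat new transcripts and often repress the use of exons, while SR proteins carry an RNA recognition motif and a tail rich in arginine and serine, and often promote it. Both groups also take part in RNA export, stability and translation, and many of them control the splicing of their own transcripts. AGO2 carries microRNAs to target RNAs, most often to the 3′ end of messenger RNAs in the cytoplasm, and AGO2 CLIP is used to map such sites.

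Of the 32 genes, 7 held a peak in at least 1 list, a share of 21.9% (95% Wilson interval 11.02 to 38.8), against 9.77% of all protein-coding genes and 6.74% of those with spans in the same range as the 32 genes, 1165 to 39226 nt. They were Hnrnpa0, Hnrnpa2b1, Hnrnph3, Hnrnpm, Hnrnpu, Hnrnpul1 and Srsf11. Together they held 14 peaks, and all 14 were PIPE-CLIP clusters, 13 in the 6 Hnrnp genes and 1 in Srsf11. PIPE-CLIP clusters lay in 7.12% of all protein-coding genes. None of the 3654 peaks of CIMS, Piranha and Pyicoclip lay in any of the 32 spans, and 4.58% of all protein-coding genes, or 2.67% of those in the same span range, held a peak of those 3 lists. List by list, Pyicoclip peaks were found in 4.54% of protein-coding genes, Piranha peaks in 2.89% and CIMS peaks in 0.279%. No member was therefore in at least 2 lists, against 3.99% of all protein-coding genes and 2.29% of those in the same span range. With 32 genes, these zeros are near the background. The 14 clusters formed 14 separate loci, each with 1 caller, and the nearest peak of another list on either strand was 39.2 to 1215 kb away. Absence from a list says only that no peak reached it, since the lowest score in each list was 10.

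Among the hnRNPs of the A/B group, which bind RNA through paired recognition motifs, Hnrnpa0 carried the densest set of clusters. Hnrnpa0, known for binding AU-rich elements in messenger RNAs, has a span of only 2678 nt on chromosome 13, 58125879 to 58128556, and held 4 clusters. From the 5′ to the 3′ end of the gene they lay at 58128186 to 58128278 with a score of 14, 58127961 to 58128086 with 12, 58126980 to 58127044 with 12, and 58126192 to 58126263 with 14. The 4 clusters covered 356 nt and were separated by gaps of 99, 916 and 716 nt, so they ran from 12.1% to 87.0% of the span and were not gathered at 1 end. This was 1.49 clusters per kb of span, the highest value of the 32 genes, against a median of 0.0354 over the 1560 protein-coding genes with a PIPE-CLIP cluster. Of those 1560 genes, 11 had a higher value, 4 of them on nuclear chromosomes. A cluster in a short span counts for more on this scale.

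Hnrnpa2b1, whose protein reads and transports RNA and is known from human cells to aid the processing of some primary microRNAs, held 1 cluster. It lay on chromosome 6, 51466140 to 51466223, at 40.2% of a span of 9615 nt, with a score of 12. The other A/B genes held none. These were Hnrnpa1, the classic antagonist of Srsf1 in splice site choice, Hnrnpa3, Hnrnpab, Hnrnpd, which encodes the decay factor AUF1, its relative Hnrnpdl, and Hnrnpa1l2-ps2, a gene annotated as protein-coding in spite of its pseudogene suffix. The peak nearest to Hnrnpa1 was a PIPE-CLIP cluster with a score of 11 at chromosome 15, 103238822 to 103238918, 1025 nt outside the span. It lay on the minus strand inside Cbx5, a minus-strand gene that encodes the heterochromatin protein HP1 alpha, and was not counted.

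The hnRNP U group, large proteins that bind both RNA and chromatin, held 6 of the 14 clusters. Hnrnpul1, which encodes a relative of hnRNP U first described as a partner of an adenoviral protein, has a span of 35108 nt on chromosome 7 and held 4. The highest score of any Hnrnp or Srsf cluster, 18, was that at 25726086 to 25726221, at 85.8% of the span. Close to the 3′ end, 2 clusters with scores of 10 lay at 25722277 to 25722355 and 25721915 to 25721970, 306 nt apart and at 96.7% and 97.8% of the span. The last of the 4, with a score of 13, lay near the 5′ end at 25752504 to 25752595.

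Hnrnpu, also known as scaffold attachment factor A, held 2 clusters on chromosome 1. They lay at 178332091 to 178332205 with a score of 13 and at 178331370 to 178331441 with a score of 11, at 37.9% and 42.1% of the span and 649 nt apart. Hnrnpul2, the remaining gene of the group, held none. Holding at least 4 clusters, as Hnrnpa0 and Hnrnpul1 did, was found in 11.7% of the protein-coding genes with a PIPE-CLIP cluster, while 62.0% held exactly 1.

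Single clusters were found in Hnrnph3, Hnrnpm and Srsf11. Hnrnph3 belongs to the H/F group, which binds runs of G, and its cluster on chromosome 10, 63021979 to 63022055, had a score of 11 and lay at 21.1% of the span. Hnrnpm encodes a regulator of alternative exons in epithelial and mesenchymal cells, and its cluster on chromosome 17, 33648514 to 33648588, had a score of 13 and lay at 94.1% of a span of 39226 nt. Srsf11 encodes an SR-related protein of the spliceosome, and its cluster on chromosome 3, 158025836 to 158025904, had the floor score of 10 and lay at 41.9% of the span.

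Of the 11 Srsf genes, Srsf11 alone held a peak, a share of 9.09% (Wilson interval 1.62 to 37.7), against 28.6% of the 21 Hnrnp genes (13.8 to 49.96). The intervals overlap, and the difference was not tested. Over all protein-coding genes the share was 9.77%. The families differ in strand, with 12 of the 21 Hnrnp but 3 of the 11 Srsf genes on the minus strand, where all 14 clusters lay. Among minus-strand genes, 6 of 12 Hnrnp genes, 50.0% (25.4 to 74.6), and 1 of 3 Srsf genes, 33.3% (6.15 to 79.2), held a cluster. Among plus-strand genes, 0 of 7 and 0 of 8 did. A PIPE-CLIP cluster was present in 12.2% of all minus-strand and 1.98% of all plus-strand protein-coding genes, so the plus-strand zeros are near the background. The Srsf genes without a peak were Srsf1, Srsf2, Srsf3, Srsf4, Srsf5, Srsf6, Srsf7, Srsf9, Srsf10 and Srsf12, which include the founding SR proteins SF2/ASF (Srsf1) and SC35 (Srsf2). Among the remaining Hnrnp genes, none was found in Hnrnpc, which encodes the core C proteins, in Hnrnpk, a KH-domain protein, in Hnrnpf, Hnrnph1 and Hnrnph2 of the H/F group, in Hnrnpl and Hnrnpll, or in Hnrnpr.

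**Figure D1:**
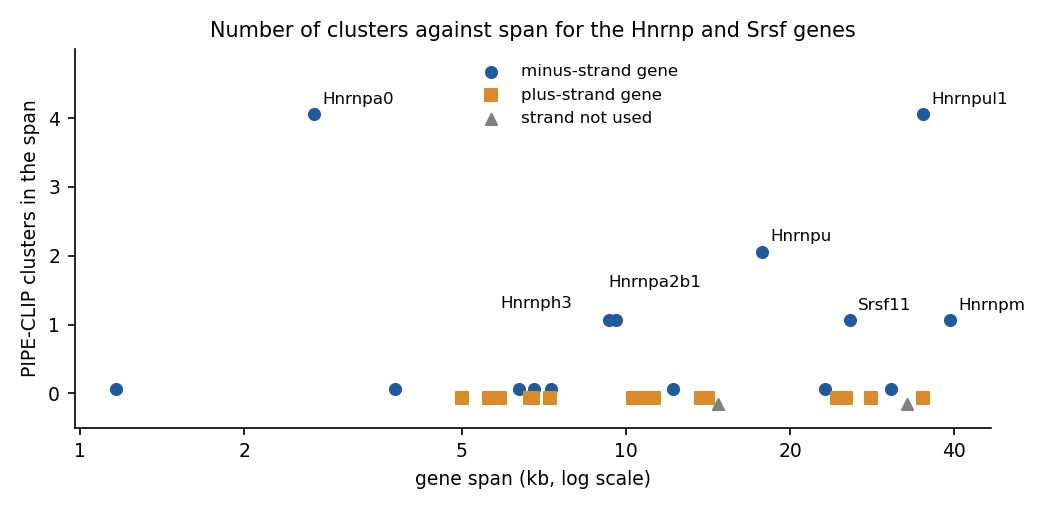
Number of PIPE-CLIP clusters in the span of each of the 32 Hnrnp and Srsf genes (vertical axis, points shifted slightly so that strands do not overlap) against span length in kb on a log scale. Hnrnpa0, with a span of 2678 nt, and Hnrnpul1, with 35108 nt, both held 4 clusters, and all genes with a cluster are minus-strand genes.

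All 14 clusters were on the minus strand, and all 7 genes that held them are minus-strand genes. Gene strand was read from a RefSeq promoter table for 30 of the 32 genes, with 15 on each strand, and was not used for Hnrnpll and Hnrnpul2. A cluster was present in 7 of the 15 minus-strand genes, 46.7% (24.8 to 69.9), and in 0 of the 15 plus-strand genes. Every cluster was thus sense to its gene, and no other annotated gene span held any of their midpoints. Sense placement was the rule in this list. Of the minus-strand PIPE-CLIP clusters in exactly 1 gene span, that of a protein-coding gene with a strand, 1863 of 1887, 98.7%, were sense. The plus-strand genes include Hnrnpa1, Hnrnpa3, Hnrnpl, Hnrnpr and 8 Srsf genes, so only Srsf2, Srsf7 and Srsf11 of the SR genes are on the minus strand.

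The same split by strand ran through the PIPE-CLIP list. Of its 3257 clusters, 2835 were on the minus strand and 422 on the plus strand, and a cluster was present in 12.2% of minus-strand and 1.98% of plus-strand protein-coding genes. In the scores of the 14 clusters, 10 to 18, the list held 2179 minus-strand and 275 plus-strand clusters, so low-scoring plus-strand clusters were present but few. Over the other 3 lists as 1 set, the shares were 4.51% of minus-strand (4.09 to 4.96) and 4.57% of plus-strand protein-coding genes (4.15 to 5.03). Over protein-coding genes with spans of 1165 to 39226 nt, the PIPE-CLIP shares were 9.29% on the minus and 1.65% on the plus strand. For the 15 plus-strand genes, a lack of AGO2 sites and the scarcity of plus-strand clusters in this list cannot be told apart.

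**Figure D2:**
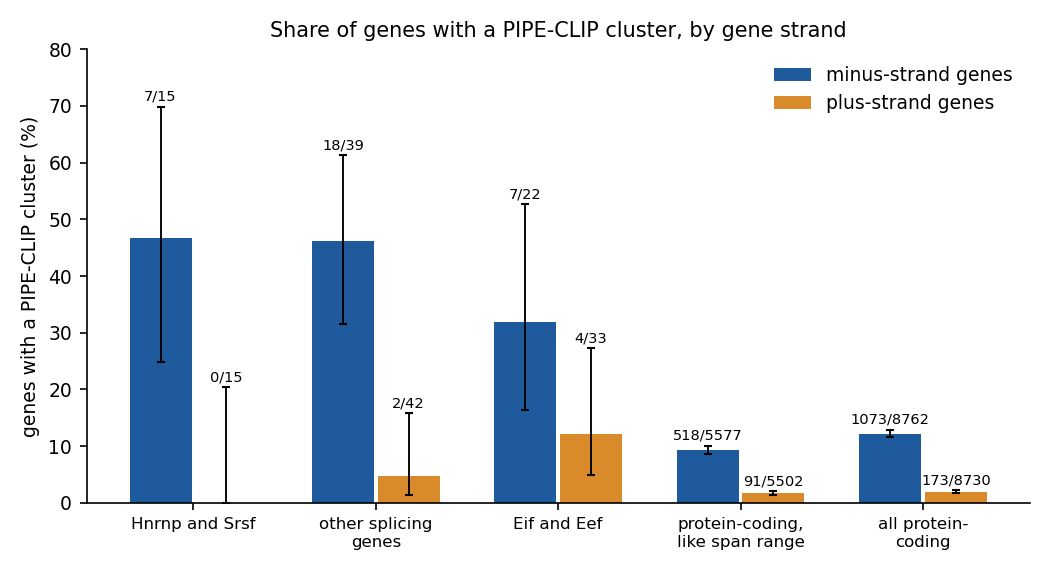
Share of genes with a PIPE-CLIP cluster (vertical axis, %), for minus-strand and plus-strand genes of each set, with 95% Wilson intervals and the number of genes above each bar. Among minus-strand genes the Hnrnp and Srsf share of 46.7% is close to the 46.2% of other splicing genes and above the 12.2% of all protein-coding genes. In each set the minus-strand share is above the plus-strand share. The other splicing genes were chosen with earlier results of these data known, so their share is not an independent reference. Genes with no strand given are left out.

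Within the minus strand, the 7 genes with a cluster had spans of 2678 to 39226 nt with a median of 17784 nt. The 8 without one had spans of 1165 to 30663 nt with a median of 7036 nt, and the ranges overlap widely. Chromosome 11 held 391 minus-strand clusters, 13.8% of those of the list, and 4 of the 32 genes, Hnrnph1, Hnrnpab, Srsf1 and Srsf2. None of these 4 held a peak. Only Hnrnpab and Srsf2 of them are minus-strand genes, and at the 12.2% of minus-strand protein-coding genes with a cluster, none in a pair is no result.

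The scores of the 14 clusters, which are the authors' own values with no stated unit and serve here only to rank peaks in the list, ran from 10 to 18 with a median of 12, against a median of 14 in the whole PIPE-CLIP list. The Hnrnpul1 cluster with a score of 18 exceeded 71.4% of the list, and 803 clusters scored higher. The 2 clusters of Hnrnpa0 with a score of 14 exceeded 48.1%. The remaining 11 clusters had scores of 10 to 13. None of the 14 reached 20, a score that 19.9% of the minus-strand clusters reached. Counted by gene, the highest cluster scored under 20 in all 7 genes, against 75.2% of minus-strand protein-coding genes with a cluster. Support by PIPE-CLIP alone, found for all 7, was likewise the rule among such genes, with 80.7% of them on the minus strand and 72.9% on either strand. Widths ran from 56 nt in Hnrnpul1 to 136 nt, also in Hnrnpul1, with a median of 78 nt, close to the 83 nt of all minus-strand clusters.

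**Figure D3:**
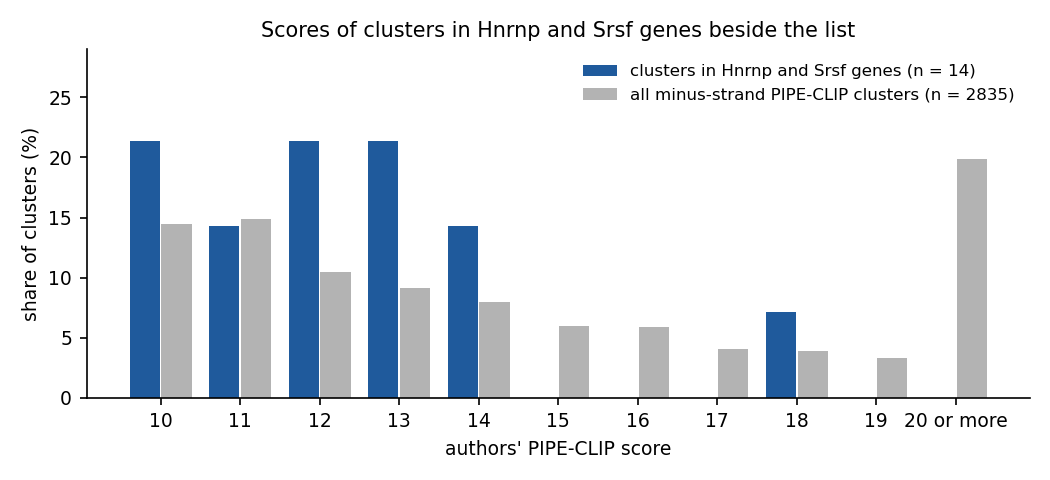
Share of clusters (vertical axis, %) at each PIPE-CLIP score (horizontal axis, with scores of 20 or more joined), for the 14 clusters in Hnrnp and Srsf genes and for all 2835 minus-strand clusters. The Hnrnp and Srsf clusters sit between 10 and 18, and none falls in the last class, which holds 19.9% of the minus-strand list.

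Along the genes, read from the 5′ end of the span to the 3′ end, 3 of the 14 clusters lay in the last 10% of the span, a share of 21.4% (7.57 to 47.6), and 0 in the first 10%. The 3 were 1 in Hnrnpm and 2 in Hnrnpul1. Over all 2008 sense clusters in minus-strand protein-coding genes, 40.8% (38.7 to 42.95) lay in the last 10% and 8.72% (7.56 to 10.03) in the first. Past the midpoint of the span lay 42.9% of the Hnrnp and Srsf clusters (21.4 to 67.4) and 70.6% of all such clusters (68.6 to 72.6). The 14 clusters come from 7 genes and those of 1 gene are not independent, and the differences were not tested. The intervals of the share in the last 10% overlap, while those of the share past the midpoint do not. They count clusters as independent, so no separation is read from this, and the share past the midpoint was not recounted by gene. Spans were not matched. Their median was 17784 nt for the 7 genes and 41202 nt for all protein-coding genes with a PIPE-CLIP cluster. With 1 cluster counted per gene, the highest-scoring one, only that of Hnrnpm lay in the last 10%, 1 of 7. Spans include introns, and exons were not used here, so it cannot be said which clusters lie in untranslated regions. None of the 4 lists had a peak touching the 42 promoter windows of the 30 genes with a strand, each from 250 bases before to 50 bases after a start site. The windows of all protein-coding genes were not counted, so this 0 has no background and is not read as a trait of these genes.

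**Figure D4:**
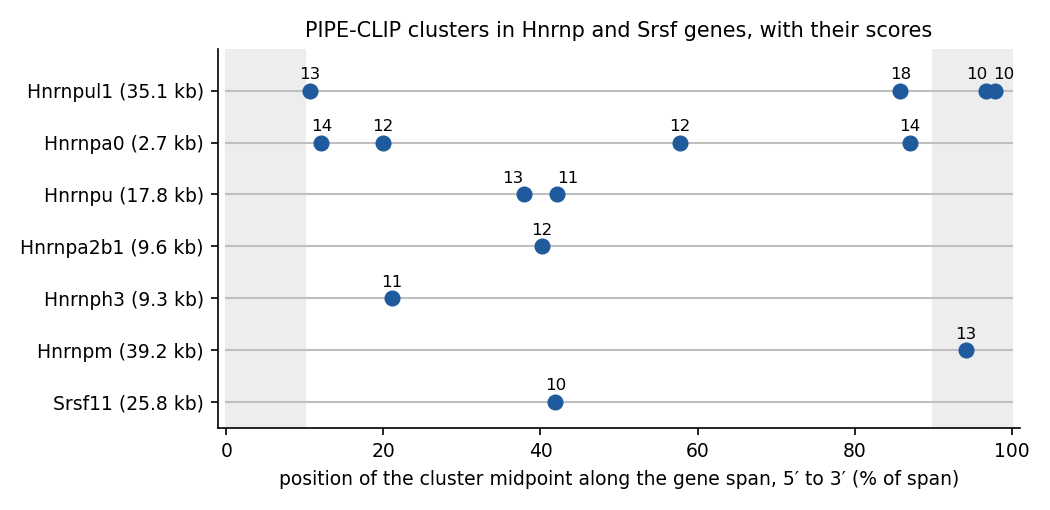
Position of each PIPE-CLIP cluster midpoint along its gene, as a percent of the span from the 5′ to the 3′ end (horizontal axis), for the 7 Hnrnp and Srsf genes with a cluster, with the score above each point and the first and last 10% shaded. The clusters of Hnrnpa0 are spread from 12.1% to 87.0%, those of Hnrnpu lie at 37.9% and 42.1%, and only Hnrnpul1 and Hnrnpm have clusters in the last 10%.

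The list of 101 other splicing genes includes spliceosome subunits, RNA helicases, SR protein kinases and tissue-specific splicing regulators. It is a broad list that also holds general RNA-binding and nucleolar proteins, such as those of Ncl and Npm1. The list was chosen with earlier results of these data known, and it included genes found by several callers. In at least 1 list there were 7 of the 32 Hnrnp and Srsf genes, 21.9%, and 35 of these 101, 34.7% (26.1 to 44.3). In at least 2 lists there were 0 of 32 (0 to 10.7) and 12 of 101, 11.9% (6.93 to 19.6). The intervals overlap, and the differences were not tested. Over all protein-coding genes, 9.77% were in at least 1 list and 3.99% in at least 2. The 101 genes were not matched to the 32 by span. Of the 101 genes, 15 held a peak of CIMS, Piranha or Pyicoclip, 14.9% (9.21 to 23.1), against 4.58% of all protein-coding genes. Of the 32 genes, 0 did (0 to 10.7), and these intervals overlap. For PIPE-CLIP alone, the Hnrnp and Srsf share on the minus strand, 46.7%, was near that of the other splicing genes, 18 of 39 or 46.2% (31.6 to 61.4). On the plus strand, 0 of 15 Hnrnp and Srsf genes and 2 of 42 other splicing genes, 4.76%, held a cluster. The 2 were Pcbp2 and Sfpq, and their clusters were antisense to them and also lay in the spans of Map3k12 and Zmym1, so sense clusters were found in 0 of the 42. Among all protein-coding genes, the PIPE-CLIP shares were 12.2% on the minus and 1.98% on the plus strand. A further 20 of the 101 genes had no strand given. Of these, 6 held a PIPE-CLIP cluster, 30.0% (14.5 to 51.9), against 7.12% of all protein-coding genes with no strand given.

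Of the 12 genes in at least 2 lists, Npm1, Ddx5, Pcbp3 and Khdrbs1 were in 3 lists and the other 8 in 2. Npm1, which encodes the nucleolar protein nucleophosmin, had 10 peaks summed over lists. Ddx5, the gene of an RNA helicase that also acts in microRNA processing, had 9, 3 of PIPE-CLIP, 5 of Pyicoclip and 1 of Piranha, all sense to the gene. Ncl, which encodes nucleolin, had 6. Srpk2, a kinase that phosphorylates SR proteins, had 5 peaks, of which 2 were sense, and at least 1 of them also lay in the span of Kmt2e. Tnpo3, the importer of SR proteins into the nucleus, had 2. The splicing regulators Pcbp3, Khdrbs1, Qk, Rbfox1 and Rbfox2 had 2 to 5 each, with 1 CIMS peak in Pcbp3, and at least 1 peak of Rbfox1 also lay in the span of Gm52235. Sf1, the branch point binding protein, and Sf3b5, a subunit of the U2 particle, had 2 each. These sums count a site once for every caller that found it.

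Translation factor genes, the 71 with symbols beginning Eif or Eef and a digit, were the other set placed beside them. On the minus strand, 46.7% of Hnrnp and Srsf genes and 7 of 22 translation factor genes, 31.8% (16.4 to 52.7), held a PIPE-CLIP cluster, with overlapping intervals. On the plus strand, 0 of 15 (0 to 20.4) and 4 of 33, 12.1% (4.82 to 27.3), held one, and these intervals overlap too. Over all genes of each set the shares were close, at 21.9% and 19.7%. Among all protein-coding genes, a PIPE-CLIP cluster was present in 12.2% on the minus strand, 1.98% on the plus strand and 7.12% in total. In at least 2 lists were 0 of the 32 and 8 of the 71, 11.3% (5.82 to 20.7), against 3.99% of all protein-coding genes. The difference between the 2 sets was not tested. Of 6 genes typical of pluripotent cells, Lin28a had peaks in 4 lists, Pou5f1 in 1 and Sox2, Nanog, Utf1 and Dppa5a in none. A CLIP peak is not an expression level, so this does not check the cell type. No RNA level was used here, so peaks could not be set against the abundance of each transcript.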

How the data were processed

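RNA was recovered from nitrocellulose, amplified by 20 to 24 PCR cycles and selected for inserts of 20 to 50 nt, per the labels' protocols. Cutadapt, Novoalign and mm10 are named in the submitters' processing notes. No source used here gives their versions, the settings of the callers or how libraries were combined. The authors deposited 1 score per peak, with no stated unit. Counts here are of peaks and genes, and intervals cover counting error only, since PCR copies were not told apart and peaks of 1 gene are not independent.

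Gene spans came from RefSeq (GRCm38.p6) and gene strand from its promoter table, which gave a strand for 17492 of 21900 protein-coding genes. Overlapping peaks were merged into loci at 1 nt of overlap, with strand ignored. Position was read along the gene strand. No test was made on the list of genes, and shares over all protein-coding genes stand beside it. The genes and lists were chosen with earlier results of these data known. Every member with a peak is named, as are other splicing genes in at least 2 lists. Hnrnp and Srsf genes have related copies, and how reads with several matches were treated was not stated. On simulated intervals, 200 of 200 planted in gene spans were assigned to their gene, and 80 of 80 planted overlaps of 2 lists were merged. No reads or peak calling were simulated. This checks only the steps that place and merge peaks, not how well the callers find sites. Python 3.11.15, numpy 2.4.6, pandas 2.3.3, scipy 1.17.1 and matplotlib 3.10.9 were used.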

Additional observations from a re-analysis of the deposited data

How the results depend on the processing

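Of 71 values recomputed under 10 alternatives, 58 stayed within 1.5 times their first value, but 39 of these were 0 before and after, most under settings that only remove peaks and cannot raise a 0. The other 19 were above 0. With a score of at least 20, without PIPE-CLIP, or without its minus-strand clusters, the Hnrnp and Srsf genes with a peak, their PIPE-CLIP clusters and their loci all came to 0. Since all 14 clusters are minus-strand PIPE-CLIP clusters with scores of at most 18, these zeros follow from how the settings are made. Other splicing genes with a peak came to 8 with a score of at least 20, to 15 without PIPE-CLIP and to 15 without its minus-strand clusters. The number of clusters in the last 10% of the span came to 1 when the highest-scoring cluster of each gene was counted. Spans extended by 2000 nt, a setting chosen after seeing the data, gave 8 genes, the added one being Hnrnpa1. Positions could not be given at a score of at least 20 or without PIPE-CLIP, since no peak was left. Leaving out a library was not possible, since each list covers all 3. No paired analysis was possible because there is 1 group and no value per library.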
